A study of Rattus norvegicus with 2 samples.

Results

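The proteasome is the protease complex that degrades proteins marked with ubiquitin. Its genes were read in electron transport system (ETS) abnormal and in control muscle fibers of aged rats. They were taken as all probe sets of the array whose annotation gives a single gene symbol starting with Psma, Psmb, Psmc, Psmd, Psme or Psmf, which are 56 of 31042 gene probe sets and stand for 42 of 14217 named genes. Psmc3ip, a meiotic recombination factor, and Psme3ip1, which binds an activator of the proteasome, share the spelling but encode no subunit and were kept apart, which left 54 probe sets of 40 genes. Of these, 18 probe sets (16 genes) belong to the 20S core, 29 (20 genes) to the 19S cap and 7 (4 genes) to the activators and the inhibitor.

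The ETS abnormal sample was a pool of laser-captured fiber sections negative for cytochrome C oxidase and hyper-reactive for succinate dehydrogenase, the ragged red phenotype, and the control sample was a pool of sections normal for both enzymes. Both came from the Vastus lateralis of F344 x BN F1 hybrid rats, 36 months old by the labels (the methods give a lower age and male sex), with no treatment named for either. The RNA of each pool passed 2 rounds of T7 amplification before it was hybridized to 1 Affymetrix rat genome array, so each population was read once, without a replicate. No error, interval or p-value can therefore be given for any gene, the precision is limited by having 1 array per population, and fewer cells of one type and less RNA per cell cannot be told apart in a pool.

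The 20S core is a barrel of alpha and beta rings, of which the beta rings carry the proteolytic sites. The 19S cap recognizes ubiquitin chains, removes them and feeds the unfolded protein into the barrel, and activators such as PA28 open the barrel without ubiquitin. In skeletal muscle this system degrades much of the contractile protein that is lost in atrophy, and the ETS abnormal segments studied here are known to atrophy. The design asks which nuclear genes respond where electron transport has failed, and for the proteasome the question is whether its parts differed between the fiber populations.

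Each value below is the signal that the GCOS software gave a probe set, on a linear scale with both arrays brought to the same trimmed mean. A background was read from 133 probe sets of 119 genes that muscle should not express (crystallins, digestive enzymes, pituitary hormones and the like) as their 95th percentile, a signal of 3546 for the ETS abnormal and 3151 for the control array. Over all gene probe sets, 3.59% exceeded it in the ETS abnormal pool and 5.86% in the control pool. The labelled tissue was weakly seen. Of 20 probe sets for fast sarcomere genes, 2 lay above background in the ETS abnormal pool (those of Acta1 and Tnni2) and 0 in the control pool, and of 15 housekeeping probe sets the counts were 2 and 1. Marker lists of other cell types gave from 0 to 2 probe sets above background per array, in the order ETS abnormal and control. These were leukocytes (2 and 2 of 23), endothelium and pericytes (1 and 2 of 16) and fibroblasts (0 and 1 of 13). Nerve (0 and 1 of 7), adipocytes (0 and 1 of 6) and erythroid cells (0 and 0 of 2) had shorter lists. Such counts cannot show that a cell type was absent.

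Of the 54 probe sets, 48 lay below background on both arrays, as did 91.2% of all gene probe sets, 3 lay above it in the ETS abnormal pool (Psma3, Psmc4 and Psmd9) and 4 in the control pool (Psmb5, Psme1, Psmc4 and Psmd9), where Psmc4 is the probe set above background on both. No probe set was called higher on either array, that is, above background and at least 2-fold above both its own signal and the background on the other array. Among all gene probe sets 0.0999% were called higher in the ETS abnormal and 0.0451% in the control pool. These counts rest on where the background is set. At the median of the genes not expected, 23 proteasome probe sets exceeded it in the ETS abnormal pool and 24 in the control pool, against 42.3% and 47.9% of all gene probe sets, and 13 and 8 were called higher, against 19.8% and 15.4%. At their 99th percentile 0 and 2 exceeded it, against 0.464% and 0.715%, and 0 were called on either array, against 0.0129% on each. On the deposited signals, with no background, 16 probe sets were at least 2-fold brighter in the ETS abnormal pool and 20 in the control pool. Over all gene probe sets these shares were 32.6% and 31.1%. The counts of the subunits were near these shares. The median of their log2 ratios, taken as ETS abnormal over control, was -0.24, against 0.06 over all gene probe sets, and it turned to 0.21 when the probe sets of each gene were averaged.

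**Figure D1:**
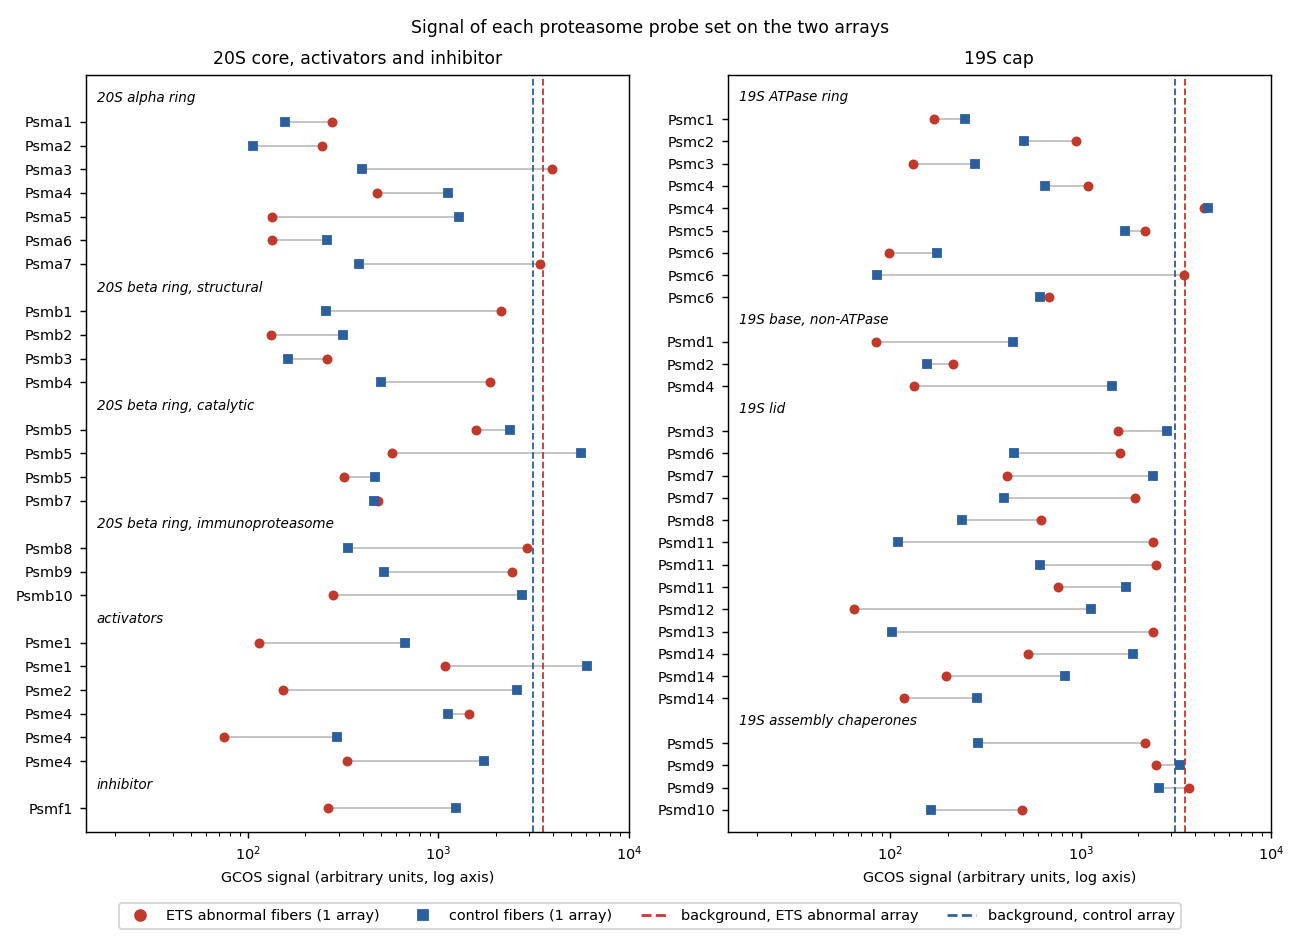
GCOS signal (log axis) of the 54 proteasome probe sets in the ETS abnormal (red circles) and control pool (blue squares), 1 row per probe set, grouped by role, with the background of each array as a dashed line. Only 6 rows reach past a dashed line of their own array, and only 1 of them, of Psmc4, does so on both arrays.

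The spread between the arrays is given for each class in turn, beside shares over all gene probe sets of 32.6% (ETS abnormal) and 31.1% (control). In the 20S core 7 of 18 probe sets were at least 2-fold brighter in the ETS abnormal pool and 5 in the control pool, with a median log2 ratio of 0.38 (quartiles -1.17 and 2.16). In the 19S cap the counts were 9 and 9 of 29, with a median of 0.17 (quartiles -1.18 and 1.60). Among the activators and the inhibitor 0 of 7 were at least 2-fold brighter in the ETS abnormal pool and 6 in the control pool, with a median of -2.39 (quartiles -2.52 and -2.10). These 7 probe sets belong to only 4 genes, 6 of the 7 lay below background on both arrays, and with signals floored at background the median became 0.17, which is the log2 ratio of the backgrounds themselves. Whether the classes differ was not tested, since probe sets of 1 pair of arrays are no replicates.

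**Figure D2:**
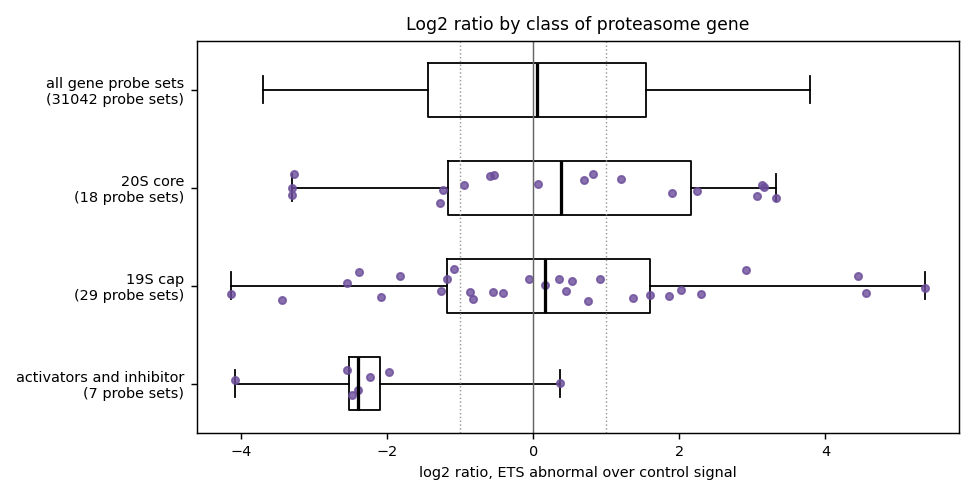
Log2 ratio (ETS abnormal over control) for all gene probe sets and for each class of proteasome gene, with 1 point per member probe set. Each box covers the middle quartiles around the median line, its whiskers reach the 5th and 95th percentile for all gene probe sets and the full range for the classes, and dotted lines mark a 2-fold difference. The 20S core and 19S cap spread to both sides as all probe sets do, and 6 of the 7 activator and inhibitor probe sets lie left of the dotted line at the control side.

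The alpha ring, which forms the gate of the 20S barrel, had members on both sides. Psma3 had a signal of 3962 in the ETS abnormal pool and 397.2 in the control pool, above background in the former only and at least 1.26-fold higher there. Psma7 was bright in the same direction, with 3403 in the ETS abnormal pool and 380.8 in the control pool, just under the background of the ETS abnormal array. Psma5 had the opposite order, with 132.7 and 1287, as had a probe set listed for both Psma3l and Psma3, with 143.3 and 246.9. The other alpha subunits, like Psma5, lay below background on both arrays. Psma1 had 275.0 in the ETS abnormal pool and 155.3 in the control pool, Psma2 had 242.9 and 105.9, Psma4 had 475.1 and 1119, and Psma6 had 133.8 and 259.0. In total 4 of the 7 alpha probe sets were brighter in the ETS abnormal pool and 3 in the control pool.

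Of the beta subunits without a proteolytic site, Psmb1 had 2144 in the ETS abnormal pool and 256.6 in the control pool and Psmb4 had 1876 and 500.8. Psmb3 had 259.9 and 161.2, while Psmb2 had 131.3 and 316.8. All 4 lay below background on both arrays, and 3 of them were brighter in the ETS abnormal pool.

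Psmb5, which carries the chymotrypsin-like activity of the constitutive proteasome, was the only core gene above background in the control pool among probe sets that name a single gene. A probe set listed for both Psmb6 and Psmb6l1 was also above it there. The probe set of Psmb5 above background had a signal of 5609 in the control pool and 567.2 in the ETS abnormal pool, at least 1.58-fold higher in the control pool. The other 2 probe sets of Psmb5 leaned the same way by less than 2-fold, with 2383 against 1575 and 461.8 against 316.9, and stayed below background. Psmb7, which carries the trypsin-like activity, had nearly the same signal in both, 479.9 in the ETS abnormal pool and 456.8 in the control pool, below background. No probe set names Psmb6, the third constitutive catalytic subunit, alone.

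The immunoproteasome subunits replace the constitutive catalytic subunits after exposure to interferon-gamma, which also induces PA28, the ring of Psme1 and Psme2 that caps the barrel. The signals of these 5 genes lay on different sides. Psmb8, the counterpart of Psmb5, had 2931.0 in the ETS abnormal pool and 335.8 in the control pool, and Psmb9, the counterpart of Psmb6, had 2450 and 517.4. Psmb10, the counterpart of Psmb7, had the opposite order, with 277.8 in the ETS abnormal pool and 2744 in the control pool. The immunoproteasome probe sets thus lay below background in both populations, 2 of them at least 2-fold brighter in the ETS abnormal pool and 1 in the control pool.

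Psme1, the alpha chain of PA28, was brighter in the control pool on both of its probe sets. The first had 6027 in the control pool and 1077 in the ETS abnormal pool, above background in the control pool and at least 1.7-fold higher there, and the second had 665.0 and 113.4. Psme2, the beta chain, had 2578 in the control pool and 152.5 in the ETS abnormal pool, below background on both arrays.

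The stretches of 250 bases before the transcription start of these interferon-inducible genes are shown because the genes are known to share an inducer while their signals lay on opposite arrays. They were taken from RefSeq (build GRCr8, not used by the array files), in the direction of transcription, with matches on either strand to the letters GAAANNGAA (core of the interferon-stimulated response element) or TTCNNNGAA (gamma-activated site) in capitals.
Psmb8, chr20:4657032-4657281 (minus strand): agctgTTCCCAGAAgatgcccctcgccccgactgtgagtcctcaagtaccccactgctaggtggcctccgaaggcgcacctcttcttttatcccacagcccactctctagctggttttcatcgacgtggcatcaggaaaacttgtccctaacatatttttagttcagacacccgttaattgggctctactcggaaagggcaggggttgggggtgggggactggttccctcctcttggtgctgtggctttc
Psmb9, chr20:4668750-4668999 (plus strand): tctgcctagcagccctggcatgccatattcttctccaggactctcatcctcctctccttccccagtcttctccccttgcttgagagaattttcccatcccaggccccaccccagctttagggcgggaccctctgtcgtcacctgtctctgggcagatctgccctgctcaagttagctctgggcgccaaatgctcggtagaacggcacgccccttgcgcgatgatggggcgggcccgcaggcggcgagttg
Psmb10, chr19:50743293-50743542 (minus strand): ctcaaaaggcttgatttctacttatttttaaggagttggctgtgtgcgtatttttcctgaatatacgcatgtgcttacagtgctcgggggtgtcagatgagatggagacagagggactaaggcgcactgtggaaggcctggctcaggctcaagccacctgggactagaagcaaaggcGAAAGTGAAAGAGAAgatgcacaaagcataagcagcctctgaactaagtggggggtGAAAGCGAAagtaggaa
Psme1, chr15:33038721-33038970 (plus strand): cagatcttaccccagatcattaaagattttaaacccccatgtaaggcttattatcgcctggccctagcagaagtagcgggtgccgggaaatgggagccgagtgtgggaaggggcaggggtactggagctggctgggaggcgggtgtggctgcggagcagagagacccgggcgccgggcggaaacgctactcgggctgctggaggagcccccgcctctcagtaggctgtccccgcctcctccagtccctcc
Psme2, chr15:33052752-33053001 (minus strand): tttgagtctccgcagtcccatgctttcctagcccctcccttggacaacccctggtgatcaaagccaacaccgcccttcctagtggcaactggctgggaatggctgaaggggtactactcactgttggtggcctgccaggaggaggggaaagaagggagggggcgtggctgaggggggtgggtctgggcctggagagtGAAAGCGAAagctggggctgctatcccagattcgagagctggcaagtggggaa
Psmb10 held 3 matches to GAAANNGAA, some of them overlapping, Psme2 held 1, and Psmb8 held 1 match to TTCNNNGAA, while Psmb9 and Psme1 held neither within this window. Of 33469 promoters of the same length, 8.12% hold GAAANNGAA and 7.67% hold TTCNNNGAA. The genes with a match were brighter in the control pool (Psmb10, Psme2) and in the ETS abnormal pool (Psmb8), and a match is a description of letters, not of a bound factor.

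Other genes of antigen processing were spread as well. Tap1, a chain of the peptide transporter that lies beside Psmb9 in the genome, had 1871 in the control pool and 262.8 in the ETS abnormal pool on one probe set and 2888 and 404.8 on the other. B2m, the light chain of the class I molecule, had 2610.4 and 625.2 on one and 831.5 and 71.0 on the other, again brighter in the control pool. Tapbp, which loads the class I molecule, was above background in the control pool, with 4719 against 3071 (at least 1.33-fold), and Cd74, the invariant chain of class II, was above background in the ETS abnormal pool, with 3681 against 1919 (at least 1.17-fold). The interferon-induced genes Ifit3 (3368 against 136.4) and Irf7 (1250.1 against 79.9) were brighter in the ETS abnormal pool, and Irf1, an interferon-induced transcription factor (2700 against 1506), and Tap2, the partner of Tap1 (160.9 against 89.5), in the control pool, all below background. Over the 10 probe sets of 8 such genes, 2 were at least 2-fold brighter in the ETS abnormal pool and 4 in the control pool. Over all gene probe sets the shares were 32.6% and 31.1%. Leukocytes express the immunoproteasome strongly. Of 18 leukocyte marker genes 17 were measured. At least 2-fold brighter were 8 of 23 probe sets (34.8%) in the ETS abnormal pool and 5 (21.7%) in the control pool. Their summed signal was 30048 and 28507, and none was listed at 0. Above background in the ETS abnormal pool were Cd3g (4490 against 155.8, at least 1.42-fold) and 1 of 2 probe sets of Cd247 (3852 against 1738, at least 1.22-fold). In the control pool these were Ccl5 (4380 against 922.5, at least 1.24-fold) and Nkg7 (4128 against 74.9, at least 1.16-fold). Below background but at least 2-fold brighter in the ETS abnormal pool were Cd4 (377.2 against 157.6) and the other probe set of Cd247 (1754 against 626.1). So were 1 of 2 probe sets of Cd3e (1259 against 229) and 1 of 3 of Cd8a (2117 against 271.6). Another Cd8a probe set was brighter in the control pool (2284 against 1640). Ptprc, the pan-leukocyte marker CD45, was brighter in the control pool on both probe sets (2960.2 against 1590.2 and 280.4 against 185.4). The macrophage markers lay on both sides. Cd68 (1007 against 343.2) and Cd14 (2735 against 86.5) were at least 2-fold brighter in the ETS abnormal pool, and Cd163 (1361 against 256.3), Csf1r (3049 against 1377) and Mrc1 (907.1 against 208.2) in the control pool, all below background. The part of such cells in the values above was not tested.

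Psme4, which encodes the activator PA200, was brighter in the control pool on 2 of 3 probe sets, with 1739 against 331.6 and 292.5 against 74.3, and slightly brighter in the ETS abnormal pool on the third, with 1453 against 1125. Psmf1, the inhibitor PI31, had 1233 in the control pool and 263.4 in the ETS abnormal pool. These 4 probe sets lay under both backgrounds. Psme3, the nuclear activator, is named alone by no probe set.

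The ATPase ring of the 19S cap, which unfolds the substrate, had 7 of its 9 probe sets within 2-fold between the arrays. Over all gene probe sets, 11262 of 31042 lay within 2-fold. The 9 probe sets belong to 6 genes, and 8 of them lay below background on both arrays. Psmc4 was the member seen in both populations. One probe set had 4455 in the ETS abnormal pool and 4656 in the control pool, a 1.05-fold difference between signals that were both above background, and its second probe set had 1093 and 650.0. Psmc5 had 2186 in the ETS abnormal pool and 1714 in the control pool, Psmc2 had 949.6 and 502.6, Psmc1 had 168.7 and 247.4, and Psmc3 had 131.3 and 277.5. Psmc6 was read by 3 probe sets that disagreed. One had 3479 in the ETS abnormal pool and 84.8 in the control pool, the widest gap of any proteasome probe set, whereas the others had 683.8 against 609.8 and 98.8 against 175.7.

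The non-ATPase subunits of the base, which hold the ring and bind ubiquitin, lay below background on both arrays. Psmd4, a ubiquitin receptor, had 133.6 in the ETS abnormal pool and 1454 in the control pool, Psmd1 had 83.9 and 439.5, and Psmd2 had 213.7 and 156.0. Adrm1, a further ubiquitin receptor of the cap whose symbol does not follow the rule, was in contrast above background in both populations, with 7248 in the ETS abnormal pool and 5376 in the control pool (1.35-fold).

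The lid removes the ubiquitin chain, and its catalytic subunit Psmd14 was brighter in the control pool on all of its probe sets. These had 1879 against 529.5, 831.7 against 196.0 and 283.7 against 118.5 in the control and ETS abnormal pools, each at least 2-fold apart and below background. Psmd7, the partner of Psmd14, had 2413 in the control pool and 411.4 in the ETS abnormal pool on one probe set and 393.1 and 1923 on the other. Psmd11 was brighter in the ETS abnormal pool on 2 of 3 probe sets, with 2398 against 109.9 and 2485 against 611.6, and dimmer on the third, with 759.2 against 1722. Psmd13 had 2395 in the ETS abnormal pool and 101.9 in the control pool, and Psmd6 had 1609 and 444.2. Psmd8 had 616.8 and 238.9 in the same order. Toward the control pool lay Psmd12, with 1135 against 64.7, and Psmd3, with 2845 against 1564. Of the 13 lid probe sets, 6 (46.2%) were at least 2-fold brighter in the ETS abnormal pool, 6 (46.2%) in the control pool and 1 was in between. Over all gene probe sets the shares were 32.6% and 31.1%, and 11262 of 31042 were in between. All 13 lid probe sets lay below background on both arrays.

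The chaperones Psmd5, Psmd9 and Psmd10 assist in the assembly of the base and are not part of the finished cap. Psmd9 was above background on a different array with each probe set, with 3716 in the ETS abnormal pool against 2574 in the control pool (at least 1.18-fold) on one and 2495.0 against 3309 on the other, where the control signal did not exceed the background of the other array. Psmd5 had 2181 in the ETS abnormal pool and 288.5 in the control pool and Psmd10 had 494.2 and 162.6, below background. Of the genes kept apart, Psmc3ip had 3112 and 229.8 and Psme3ip1 had 1797 and 1631, also below background.

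The probe sets of one gene often disagreed. Of the 9 proteasome genes with several probe sets, all probe sets were brighter on the same array for 3 (Psmb5, Psmd14 and Psme1), against 41.5% of 4525 such genes on the array. For 2 of the 9, Psmd7 and Psmd11, probe sets differed by at least 2-fold in opposite directions, against 28.8% of all such genes. All probe sets were at least 2-fold brighter in the control pool for 2 of the 9 (Psmd14 and Psme1), against 7.36%, and in the ETS abnormal pool for 0, against 8.29%. The median distance between the highest and the lowest log2 ratio of a gene was 2.76 for the proteasome and 2.71 over all such genes. The closest pair was that of Psme1, with log2 ratios of -2.48 and -2.55, and the widest set that of Psmc6, from -0.83 to 5.36.

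**Figure D3:**
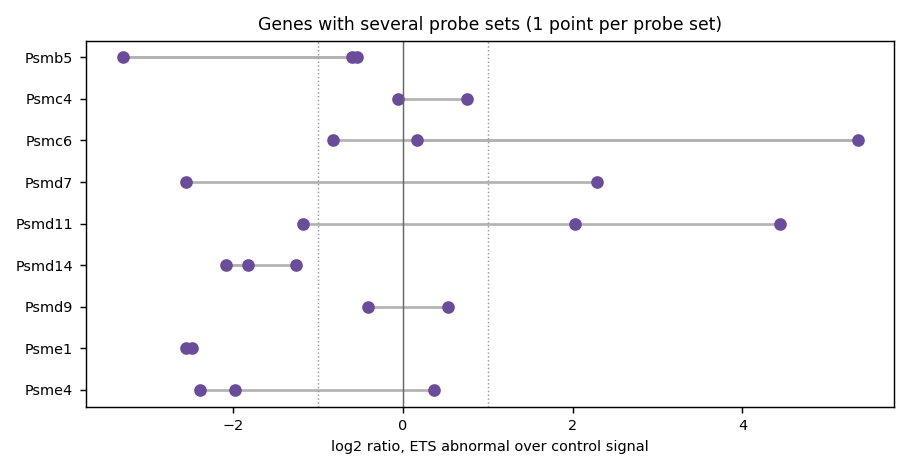
Log2 ratio (ETS abnormal over control) for each probe set (point) of the 9 proteasome genes with several probe sets, with a grey line from the lowest to the highest and dotted lines at a 2-fold difference. Psme1 and Psmd14 lie beyond the left dotted line with all their points, whereas the points of 6 genes (Psmc4, Psmc6, Psmd7, Psmd9, Psmd11 and Psme4) span the zero line.

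The genes that muscle should not express gave a measure of spread. The 5th and 95th percentiles of their log2 ratios were -3.84 and 4.34, so that 10% of them lie outside by definition. Of the proteasome probe sets 5 of 54 lay outside, those of Psmc6, Psmd11 and Psmd13 brighter in the ETS abnormal pool and those of Psmd12 and Psme2 brighter in the control pool. All 5 lay below background on both arrays. The Spearman correlation between the arrays was 0.11 over the 54 probe sets, against 0.14 over all gene probe sets, where the probe sets share the arrays and are not replicates.

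Beside the symbol rule, 7 lists held cap subunits with other symbols, factors that assemble the core or clamp it to the cap, and transcription factors of proteasome genes. They also held enzymes that activate, attach, remove and deliver ubiquitin. Over 95 probe sets of 51 genes, 33 (34.7%) were at least 2-fold brighter in the ETS abnormal pool and 28 (29.5%) in the control pool. These shares were near the 32.6% and 31.1% of all gene probe sets. Above background lay 6 of the 95 in the ETS abnormal pool and 11 in the control pool, larger shares than the 3.59% and 5.86% of all. Whether they differ was not tested. In the control pool 0 were called higher, against 0.0451% of all, and in the ETS abnormal pool 1, against 0.0999%. This was 1 of 3 probe sets of Cdc34, a ubiquitin-conjugating enzyme, with 8995 against 844.9 (at least 2.85-fold). The other Cdc34 probe sets were brighter in the control pool, with 2639.5 against 927.2 and 2608 against 1977, below background. Uba1 and Uba6, the enzymes that activate ubiquitin, were brighter in the ETS abnormal pool on all 5 of their probe sets, 4 of them by at least 2-fold and all below background, as in Uba1 with 1619 against 243.1. No ubiquitin gene of that list was named alone by a probe set. The conjugating enzymes had 11 of 27 probe sets (40.7%) at least 2-fold brighter in the ETS abnormal pool and 7 (25.9%) in the control pool. The ubiquitin ligases known from muscle had 8 and 8 of 22 (36.4% each), with 1 of 4 probe sets of Traf6 above background in both (4507 and 3303, 1.36-fold). In the control pool 1 of 6 of Nedd4 (3653 against 1469, at least 1.03-fold) and 1 of 3 of Mdm2 (3200 against 1590.0) were above it. That control signal of Mdm2 did not exceed the background of the ETS abnormal array. Probe sets of each of these 3 genes were at least 2-fold apart in opposite directions. The atrophy ligases Fbxo32 (403.3 in the ETS abnormal pool and 150.0 in the control pool) and Trim63 (167.4 and 544.3) lay on opposite sides and below background.

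The deubiquitinases and the proteins that carry ubiquitin chains to the cap had 4 of 21 probe sets at least 2-fold brighter in the ETS abnormal pool and 10 in the control pool, with a median log2 ratio of -0.87. Above background in the control pool were Nsfl1c (5127 against 2478, at least 1.45-fold), Uchl1 (3998 against 445.9, at least 1.13-fold) and Ubqln4. So was 1 of 3 probe sets of Ubqln2 (4589 against 2513, at least 1.29-fold), of which another was at least 2-fold brighter in the ETS abnormal pool. Uchl3 (3491 against 1320.1) and 1 of 2 probe sets of Rad23b (3475 against 736.2) were above it too. Their control signals did not exceed the background of the ETS abnormal array. Above background in the ETS abnormal pool were Ufd1, a partner of the unfoldase Vcp, with 5149 against 68.8 (at least 1.63-fold) on 1 of 2 probe sets, and Ubqln4, with 4340.4 against 3166. The other probe set of Ufd1 had 1646 in the ETS abnormal pool and 1947 in the control pool. The list of factors that assemble the 20S core had 3 of 11 probe sets (27.3%) at least 2-fold brighter in the ETS abnormal pool. In the control pool there were 2 (18.2%). Ecpas, which clamps cap and core together, made up 6 of the 11 and gave 2 and 2 of these counts. It was above background in both on 1 probe set, with 3977 and 4151. Pomp, which matures the beta ring, had 609.7 and 807.8. The transcription factor Nfe2l1, which restores proteasome gene expression when the complex is inhibited, was brighter in the ETS abnormal pool on 2 of 3 probe sets (2381 against 1344 and 1168 against 540.5) and in the control pool on the third (1644 against 412.5). All 7 probe sets of Nfe2l1, Nfe2l2, Ddi2 and Ngly1 lay below background.

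**Figure D4:**
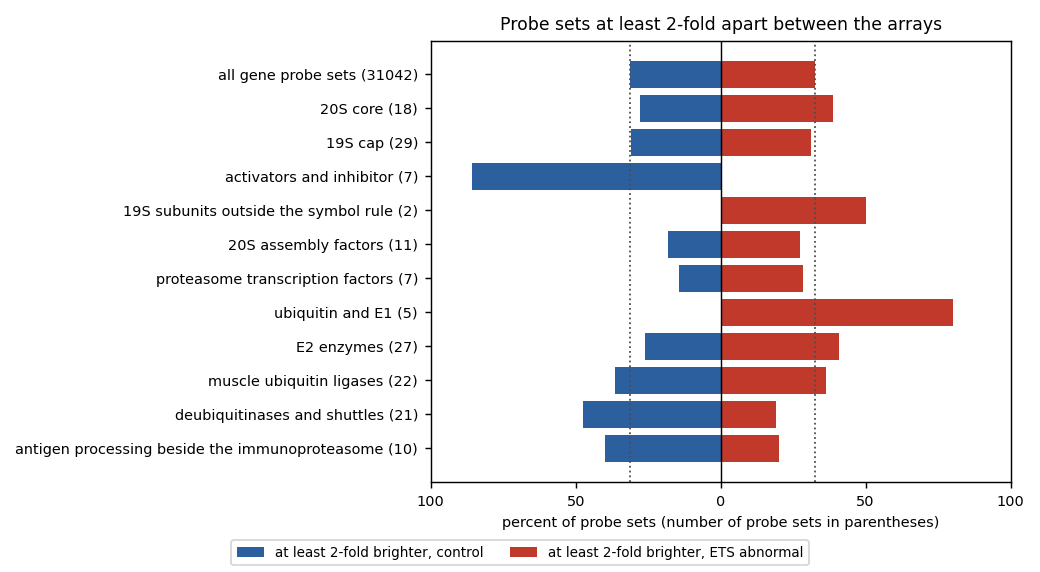
Percent of probe sets at least 2-fold brighter in the ETS abnormal (red, to the right) and control pools (blue, to the left) for all gene probe sets, the classes of the proteasome and the lists of the ubiquitin and antigen processing pathways, where parentheses give how many there were. Dotted lines mark the shares of all gene probe sets, 32.6% and 31.1%. The activators and inhibitor (6 of 7 to the left) and ubiquitin activation (4 of 5 to the right) lie on one side only, as do the cap subunits outside the symbol rule, but these groups hold few probe sets.

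Nfe2l1 and Nfe2l2 bind the antioxidant response element. The letters TGACNNNGC of its core, on either strand, stood within 250 bases before the start of 6 of the 36 proteasome genes (of 40) whose promoter was matched by gene ID, against 10.1% of all promoters. These were Psma3, Psmb2, Psmb5, Psmd1, Psmd9 and Psme4, genes that lay on both sides, as Psma3 and Psmb5 show. The letters CCAAT, a common promoter element, on either strand, stood in 18 of the 36, against 34.0%.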

How the data were processed

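RNA of 1 ETS abnormal and 1 control pool of fiber sections was read on 1 array each. The deposited intensity of each of the 31099 probe sets was computed by the authors with GCOS (1.40.036 per the labels), which combines the probes of a set and scales the array. The 2% trimmed mean was 1000.1 on both arrays, so no scaling was added. Detection calls were not used here. Samples were grouped by their titles, and 57 control probe sets were set aside.

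Members came from the platform annotation, and all 56 carry a RefSeq gene ID with the same symbol. Annotation left 9780 gene probe sets unnamed and gave 436 several genes, which were not used to name a gene. Background, calls, counts and medians were computed as described with the results, and no test was made. A value given as at least some fold is the brighter signal over the higher of the dimmer signal and the background of its array. The members, the gene lists and the choice of genes described in full (catalytic and immunoproteasome subunits, ATPases, Psmd4, Psmd14, activators, inhibitor, members above background, with concordant probe sets or with extreme ratios) were made with earlier results of these data known, and the remaining members are given as well. The fold counts were tested on simulated data in which both arrays shared the same signals with little noise. These arrays differ far more, so that test checked the computation and not the reliability of the values. Calls against background were not part of it. Alternatives were other scalings, backgrounds, fold thresholds and probe set choices. Python 3.11.15 was used with scipy 1.17.1, pandas 2.3.3, numpy 2.4.6 and matplotlib 3.10.9.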

Additional observations from a re-analysis of the deposited data

How the results depend on the processing

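Of 83 alternative values, 68 stayed close to those given, 9 moved and 6 changed sign. A median counted as close inside a 95% binomial interval over its probe sets, which are no replicates. Such intervals are wide (-4.08 to 0.37 for the activators and the inhibitor), so closeness says little about how stable a median is. A count was close within a set ratio, and also where 0 stayed 0. The median log2 ratio of all proteasome probe sets changed sign with the mean over the probe sets of a gene (0.21), the brightest probe set of a gene (0.36), signals floored at background (0.17) and the addition of Psmc3ip and Psme3ip1 (0.0037), the last chosen after seeing the data. That of the 19S cap became -0.064 over probe sets above background, and that of the activators and the inhibitor 0.17 with the floor, which sets all but 1 of their probe sets to the ratio of the backgrounds. Leaving out each of their 4 genes in turn, also chosen after seeing the data, gave -2.52 to -2.23. At 4-fold, 11 probe sets were brighter in the ETS abnormal pool and 13 in the control pool. The shares over all gene probe sets were not computed at that threshold. With the mean over probe sets, 1 gene exceeded background in the ETS abnormal pool and 0 in the control pool. A background at the 99th percentile gave 0 and 2, and one at the median gave 23 and 24, with 13 and 8 called higher. No paired analysis was possible because each group has 1 array. With signals mostly at or below background, differences among the dim members could not be told from the spread among genes that muscle should not express.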

Other observations

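A further 6 probe sets list a proteasome gene together with other genes, so their signal cannot be given to any one of them. The probe set listed for both Psmb6 and Psmb6l1 had a signal of 4389 in the control pool, above background, and 124.1 in the ETS abnormal pool. The 4 probe sets listed for Psme3, Aoc3 and G6pc1 together were brighter in the ETS abnormal pool, with 3256 against 150.8, 2575 against 1648, 2246 against 561.6 and 437.5 against 122.8, all below background. The probe set listed for Psma3l and Psma3 had 143.3 in the ETS abnormal pool and 246.9 in the control pool.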
